A study of Oryza sativa with 2 samples.

Results

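The 8 loci described here are listed as genes for JAZ repressors, proteins of the TIFY family, and they were taken by identifier from the 38511 loci that both libraries list. They are LOC_Os03g08310, LOC_Os03g08320 and LOC_Os03g08330, a tandem set on chromosome 3, LOC_Os03g28940 on the same chromosome, LOC_Os07g42370 on chromosome 7, LOC_Os09g26780 on chromosome 9, and LOC_Os10g25230 and LOC_Os10g25290 on chromosome 10. Below, "JAZ loci" means these 8 only, which are a part of the family in rice. The study measured polyA RNA from wild-type seedlings of Nipponbare, a japonica rice cultivar, to set beside maps of adenine methylation in rice DNA. Both libraries form 1 group: whole plants 3 weeks old, raised in Yoshida solution in a chamber on a short-day cycle with 10 h of light (800 μmol per square metre and second) and 14 h of darkness. No treatment, mutant or second tissue enters, so the 2 libraries show the levels of the JAZ loci and how far those levels differ between replicates. The labels do not say whether the libraries came from different plants, so their spread may be technical in part.

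Jasmonates are plant hormones made in response to wounding, chewing insects and some pathogens, and they also act in flower and root development. JAZ proteins bind transcription factors such as MYC2 and keep jasmonate-responsive genes off, with help from the adaptor NINJA and TOPLESS corepressors. When the active hormone, jasmonoyl-isoleucine, is present, the F-box protein COI1 binds JAZ proteins through their Jas motif and marks them for degradation, while the TIFY motif serves JAZ pairing and NINJA binding. This mechanism was worked out mainly in Arabidopsis, and many JAZ genes there and in rice are themselves induced by jasmonate, which makes the repressors part of a feedback loop.

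The files give identifiers without names, and RefSeq's gene table for rice (assembly ASM3414082v1) matched 0 of the 8 identifiers. The assignment of the loci to the JAZ family could therefore not be checked against an annotation, and no JAZ or TIFY number is given to a locus. The table itself lists 18 genes with a TIFY name, of which 13 also carry a JAZ name. Its TIFY10 and TIFY11 genes number 8, with 4 on chromosome 3, 1 on chromosome 7, 1 on chromosome 9 and 2 on chromosome 10, which is the same count per chromosome as for the loci here. These subgroups were picked from the 18 with the chromosomes of the loci known, so the match does not check the assignment. On chromosome 3 the table places TIFY11A, TIFY11C and TIFY11B side by side with 0 genes between them. JAZ numbers in rice are ambiguous, since the synonym OsJAZ9 stands on 2 genes of that table, TIFY11A and TIFY6A. The markers of whole seedlings could not be checked either, for want of names.

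All 8 JAZ loci were expressed well above the threshold of 1 FPKM (fragments per kilobase of transcript and per 1000000 fragments, a level already divided by transcript length). Each exceeded 10 FPKM in both libraries. The lowest single value, 11.8 FPKM for LOC_Os09g26780 in library 1, was reached or exceeded by 22.0% of listed loci there. Among all listed loci, 49.8% reached a mean of 1 FPKM. The median level of the 8 loci was 127 FPKM in library 1 and 184 FPKM in library 2, and the median of their means was 156 FPKM. Over the 19187 expressed loci the median of the means was 9.91 FPKM. By mean level, 3 of the 8 were among the highest 1% of listed loci (385 loci) and 6 among the highest 5% (1925 loci). In library 1 alone 2 of the 8 were among the highest 1%, and in library 2 alone 4 were.

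Each of the 8 JAZ loci was higher in library 2 than in library 1, as were 52.9% of all expressed loci. Summed over the 8 loci, the level was 1133 FPKM in library 1 against 1781 FPKM in library 2, or 1.57-fold higher (1457 ± 458, SD, n = 2). The sum made up 0.169% of all FPKM in library 1 and 0.273% in library 2, although the library totals were 670155 and 651935 FPKM. In whole plants a larger share of cells that express a gene and more RNA per cell cannot be told apart. Nothing in the labels separates the libraries other than their number.

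**Figure D1:**
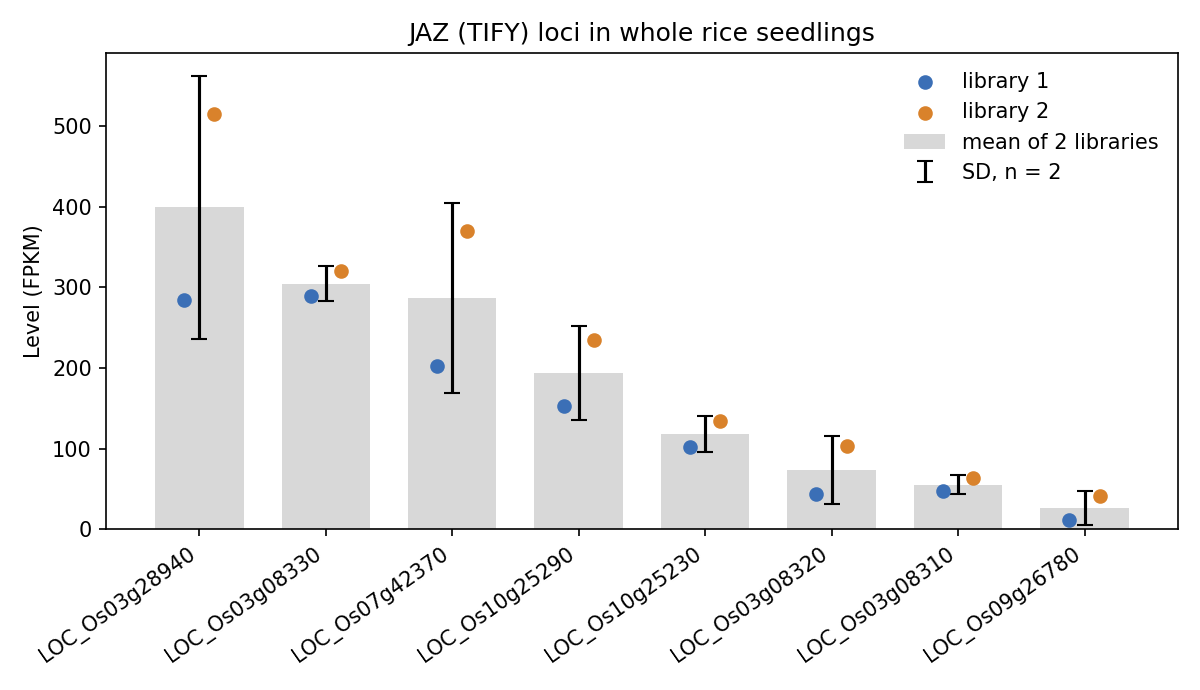
Level in FPKM (vertical axis, linear) of the 8 JAZ loci, ordered by mean, with bars for the mean, whiskers for the SD over 2 libraries and points for each library. The library 2 point lies above the library 1 point at each of the 8 loci, from LOC_Os03g28940 with a mean of 399 FPKM down to LOC_Os09g26780 with 26.6 FPKM.

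The highest mean among the JAZ loci belonged to LOC_Os03g28940, the single locus on chromosome 3 away from the tandem set. It stood at 284 FPKM in library 1 against 515 FPKM in library 2 (399 ± 163 FPKM, SD, n = 2 here and below). It was rank 259 of all listed loci in library 1 and rank 108 in library 2. Its level was 1.81-fold higher in library 2, a difference of 231 FPKM that exceeded that of any other JAZ locus.

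LOC_Os07g42370, the single locus on chromosome 7, stood at 203 FPKM in library 1 against 370 FPKM in library 2 (286 ± 118 FPKM). Its fold difference, 1.82, was close to that of LOC_Os03g28940. The ratio of LOC_Os03g28940 to LOC_Os07g42370 was accordingly 1.40 in library 1 and 1.39 in library 2. The levels of both loci thus moved nearly in proportion between the libraries.

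LOC_Os09g26780, the single locus on chromosome 9, had the lowest level of the 8 and the largest fold difference. It stood at 11.8 FPKM in library 1 against 41.5 FPKM in library 2 (26.6 ± 21.0 FPKM), a 3.51-fold difference. It moved from rank 8472 in library 1 to rank 2783 in library 2. LOC_Os07g42370 was 17.2 times its level in library 1 and 8.92 times in library 2, so the proportion between these single loci was not kept.

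The tandem set on chromosome 3 held 1 high and 2 lower loci. LOC_Os03g08330 stood at 289 FPKM in library 1 against 320 FPKM in library 2 (304 ± 22 FPKM), the closest replicate values of any JAZ locus at 1.11-fold. LOC_Os03g08310 stood at 47.0 and 63.4 FPKM (55.2 ± 11.6 FPKM), a 1.35-fold difference. LOC_Os03g08320, which lies between them by number, stood at 43.8 and 103 FPKM (73.4 ± 41.9 FPKM), a 2.35-fold difference.

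LOC_Os03g08330 gave 76.1% of the summed level of the tandem set in library 1 and 65.8% in library 2. It exceeded LOC_Os03g08310 by 6.15-fold and 5.04-fold in the 2 libraries. Its ratio to LOC_Os03g08320 changed more, from 6.60 to 3.10. The lower loci exchanged places, because LOC_Os03g08320 was 0.932 times LOC_Os03g08310 in library 1 and 1.62 times in library 2. Tandem copies can share reads, and how the authors' processing assigned such reads is not given in the sources used here, so the split of signal within the set is uncertain.

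On chromosome 10, LOC_Os10g25290 stood at 153 FPKM in library 1 against 235 FPKM in library 2 (194 ± 58 FPKM), a 1.54-fold difference. LOC_Os10g25230 stood at 102 and 134 FPKM (118 ± 22 FPKM), a 1.31-fold difference. LOC_Os10g25290 was the higher of the pair in both libraries, by 50.8 FPKM in library 1 and by 101 FPKM in library 2. Reads shared between these loci would make this difference uncertain in the same way.

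By mean level the order was LOC_Os03g28940, LOC_Os03g08330, LOC_Os07g42370, LOC_Os10g25290, LOC_Os10g25230, LOC_Os03g08320, LOC_Os03g08310 and LOC_Os09g26780. None of the 7 neighbouring pairs in this order was separated by more than the sum of the 2 SDs. Of all 28 pairs, 18 were. This rule ignores that both loci of a pair were read in the same libraries, and every JAZ locus was higher in library 2. By another criterion, rank within each library, the order was the same in both libraries for 25 of the 28 pairs. The 3 pairs that changed order were LOC_Os03g08330 with LOC_Os03g28940, LOC_Os03g08330 with LOC_Os07g42370, and LOC_Os03g08320 with LOC_Os03g08310. In library 1 LOC_Os03g08330 was the highest JAZ locus, while in library 2 it came after LOC_Os03g28940 and LOC_Os07g42370. The highest locus exceeded the lowest by 24.5-fold in library 1 and by 12.4-fold in library 2. With 2 libraries an exact sign-flip permutation test of 1 locus against another cannot give a two-sided p below 0.5, so no test of the order was made.

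The shift between the libraries was then set against all expressed loci, on the scale of log2(FPKM + 1). The 8 JAZ loci were all higher in library 2, where 52.9% of expressed loci were higher. None (0 of 8) was higher in library 1, where 47.1% of expressed loci were. The median of their log2 ratios, library 2 over library 1, was 0.74, against 0.02 over all expressed loci. At least 1.5-fold higher in library 2 were 5 of the 8, LOC_Os03g08320, LOC_Os03g28940, LOC_Os07g42370, LOC_Os09g26780 and LOC_Os10g25290, against 7.83% of expressed loci. At least 2-fold higher were 2 of the 8, LOC_Os03g08320 with a log2 ratio of 1.22 and LOC_Os09g26780 with 1.73, against 3.26%. In either direction, 6.75% of expressed loci were at least 2-fold apart. The design has 1 library on each side, so these counts carry no test, and the 8 loci share both libraries and are not independent.

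Single loci differed in how unusual their shift was. A log2 ratio as high as that of LOC_Os09g26780 or higher was found at 0.933% of expressed loci, and one as high as that of LOC_Os03g08320 at 2.16%. These were also the lowest and the third lowest of the 8 by mean level. For LOC_Os07g42370, with a log2 ratio of 0.86, the share was 4.19%, and for LOC_Os03g28940, also at 0.86, it was 4.26%. Of these, LOC_Os03g28940 was the highest JAZ locus by mean and in library 2, but not in library 1. LOC_Os10g25290 had a log2 ratio of 0.62 and a share of 7.27%. The ratios of LOC_Os03g08310 (0.43) and LOC_Os10g25230 (0.39) were matched or exceeded at 12.5% and 14.1% of expressed loci. That of LOC_Os03g08330 (0.15) was matched or exceeded at 34.7%, so this locus stood within the bulk of expressed loci.

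**Figure D2:**
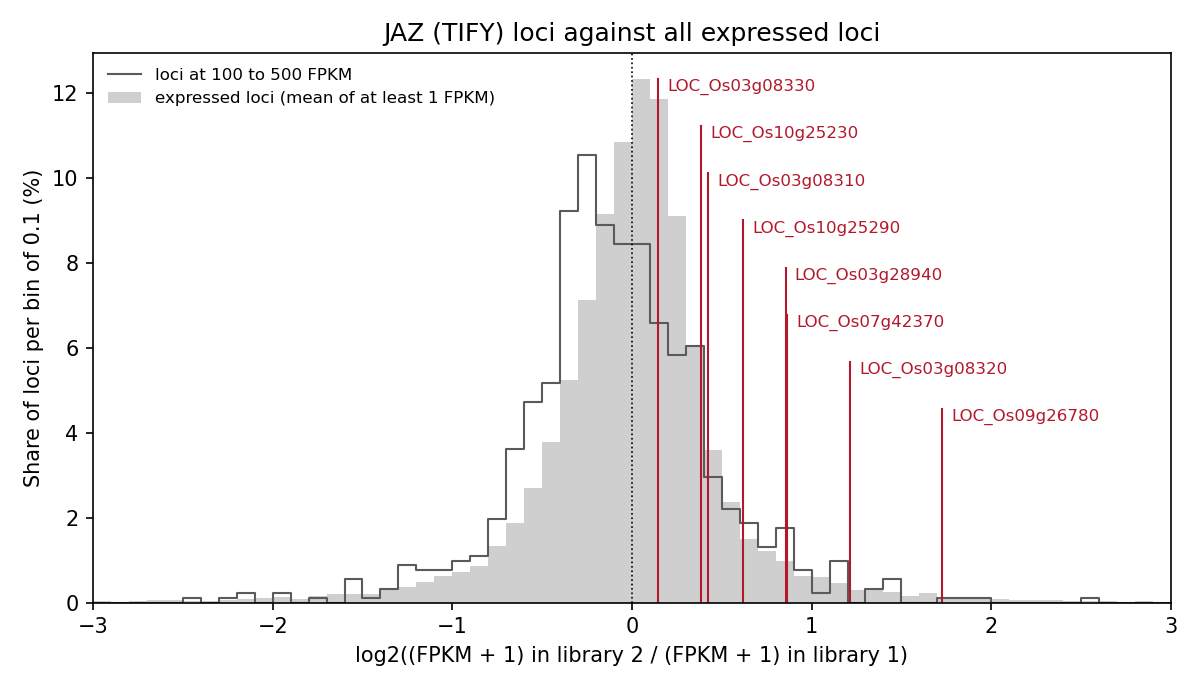
Distribution of the log2 ratio of library 2 over library 1, on FPKM + 1 (horizontal axis), as the share of loci per bin in percent (vertical axis), with grey bars for 19187 expressed loci and an outline for 910 loci at 100 to 500 FPKM. Red lines, whose heights have no meaning, mark the 8 JAZ loci, which all lie right of 0, from 0.15 to 1.73, and 0.443% of expressed loci lie outside the plotted range.

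The ratio between libraries differed between 2 classes of level, 10 to 100 and 100 to 500 FPKM, the only classes read. Between 100 and 500 FPKM, the class of 5 JAZ loci, 41% of all 910 loci were higher in library 2 and the median log2 ratio was -0.10. All 5 JAZ loci of this class were higher in library 2, and 3 of them by at least 1.5-fold, against 9.12% of the class. Between 10 and 100 FPKM, the class of the other 3 JAZ loci, 55.1% of 8530 loci were higher in library 2, with a median log2 ratio of 0.04. There, 2 of the 3 were at least 1.5-fold higher, against 6.96% of the class.

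Summed levels were also compared between the single loci and those in groups on chromosomes 3 and 10. The sum of the 3 single loci was 499 FPKM in library 1 against 926 FPKM in library 2, a 1.86-fold difference. The chromosome 10 pair gave 255 and 369 FPKM, 1.45-fold apart. The tandem set gave 380 and 486 FPKM, 1.28-fold apart. The single loci therefore held 44.0% of the summed level of the 8 loci in library 1 and 52.0% in library 2. The tandem set held 33.5% and 27.3%. Each sum weights its loci by level, and LOC_Os03g08330, at 1.11-fold, held most of the level of the tandem set. The largest part of that set's rise came from LOC_Os03g08320, with 59.2 FPKM. LOC_Os03g08330 added 30.8 FPKM and LOC_Os03g08310 added 16.5 FPKM. Within the tandem set, LOC_Os03g08320 at 2.35-fold exceeded the single loci LOC_Os03g28940 at 1.81-fold and LOC_Os07g42370 at 1.82-fold, so the order of the sums does not hold for each locus. These differences between groups of loci were not tested.

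The loci next to the JAZ loci by locus number, named by identifier only, were read in the same way. Of the 22 loci looked at, the 2 nearest listed on each side of every set or single locus and those between the chromosome 10 pair, 12 were expressed. Of these 12, 6 were higher in library 2, against 52.9% of expressed loci, and 0 were at least 1.5-fold higher, against 7.83%, so both counts were near those over all loci. LOC_Os10g25310 was more than 2-fold lower in library 2. Their median log2 ratio was -0.01, with values from -2.56 to 0.24. No test compared them with the JAZ loci described here, and LOC_Os10g25250 among the 22 may itself be a JAZ or TIFY locus. Position was read from the identifiers and not from a genome.

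Beside the tandem set, LOC_Os03g08284 stood at 61.4 and 69.7 FPKM and LOC_Os03g08300 at 5.79 and 5.85 FPKM in libraries 1 and 2. Following the set, LOC_Os03g08350 was near 0, at 0.173 and 0.178 FPKM. The next locus, LOC_Os03g08360, stood at 407 FPKM in library 1 against 288 FPKM in library 2, above every locus of the set in library 1 and below LOC_Os03g08330 in library 2. High level in this stretch was thus not limited to the JAZ loci, while LOC_Os03g08360 differed between the libraries in the opposite direction.

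Between the chromosome 10 pair, LOC_Os10g25250 was listed at 0 in both libraries, and LOC_Os10g25260 at 0 in library 1 and 0.124 FPKM in library 2. LOC_Os10g25250 had been put down as a further JAZ or TIFY locus by identifier only, which could not be checked either. Before the pair, LOC_Os10g25220 stood at 0.418 and 0.306 FPKM and LOC_Os10g25210 at 2.59 and 3.02 FPKM. After it, LOC_Os10g25300 stood at 12.9 and 15.5 FPKM. LOC_Os10g25310 was far apart between the libraries, at 16.1 FPKM in library 1 against 1.89 FPKM in library 2. Both loci of the pair exceeded every one of these neighbours in each library.

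**Figure D3:**
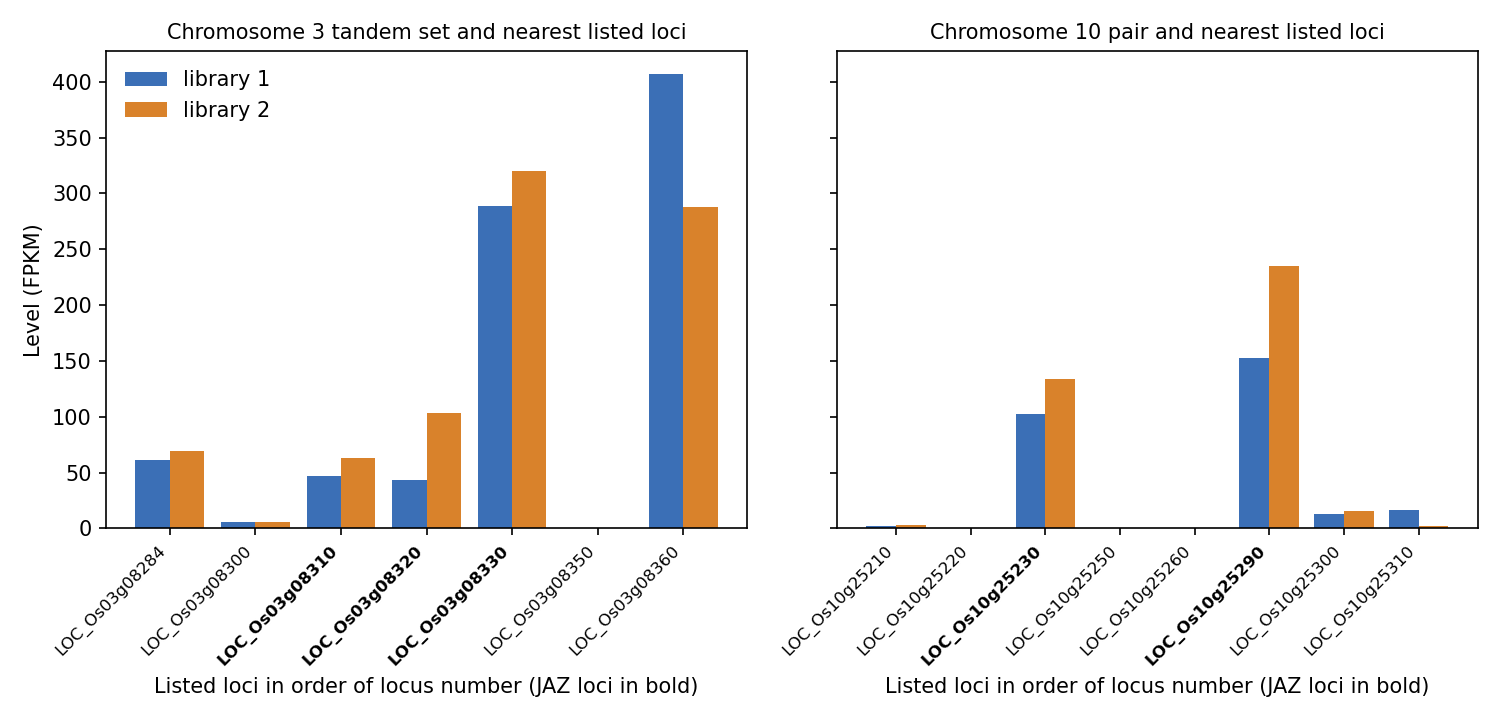
Level in FPKM (vertical axis, linear) in library 1 and library 2 of the chromosome 3 tandem set (left) and the chromosome 10 pair (right). Their nearest listed loci stand beside them in order of locus number (horizontal axis), and bold marks the JAZ loci described here. On chromosome 10 both loci of the pair stand above all neighbours, whereas on chromosome 3 LOC_Os03g08360 reaches 407 and 288 FPKM.

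The single loci lay among neighbours of low or moderate level. Beside LOC_Os03g28940, LOC_Os03g28960 had the highest mean, 6.41 ± 0.67 FPKM, and LOC_Os03g28910 and LOC_Os03g28969 were listed at 0 in both libraries. Beside LOC_Os07g42370, LOC_Os07g42380 stood at 8.26 and 8.11 FPKM and LOC_Os07g42354 at 3.68 and 3.50 FPKM. LOC_Os09g26780 was the exception, since LOC_Os09g26810 exceeded it at 79.4 FPKM in library 1 and 58.9 FPKM in library 2. The flanking LOC_Os09g26770, at 11.7 and 10.0 FPKM, and LOC_Os09g26800, at 13.9 and 16.3 FPKM, were close to LOC_Os09g26780 in library 1 and below it in library 2, where it reached 41.5 FPKM.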

How the data were processed

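Each of the 2 libraries has 1 FPKM value per locus, which the authors deposited and made with Cufflinks, per the submitters' processing notes (no version). The aligner, genome build, annotation and strand setting were not given in the sources used here. Since FPKM is not a read count, no count model was used. Depth is unknown, and no counting interval is given. Relative depth was estimated from 945 low loci (above 0 in each library, mean under 0.5 FPKM, log2 ratio within 0.5 of 0). The inverse of their commonest ratio, library 2 over library 1, put the depth of library 2 at 1.08 times that of library 1. This assumes equal fragment counts at such loci in both libraries, and the limit on the ratio bounds the estimate.

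Means ± SD cover 2 libraries. Log2 ratios, and the counts of loci at least 1.5-fold or 2-fold apart, use a pseudocount of 1 FPKM, which understates changes of low loci. Fold differences of single loci and of sums, and ratios of 1 locus to another, use none. The 8 members and all lists were chosen with earlier results of these data known. All 8 were named, with neighbouring loci by identifier. No locus of most similar pattern was named, since 2 libraries of 1 group give none. A list of 16 further jasmonate loci had 0 identifiers paired with a name in the reference and was not used. LOC_Os10g25250 was on that list as a JAZ or TIFY locus and is given only as a neighbour by number. Alternatives covered thresholds, pseudocounts, scaling, filters and single libraries. Python 3.11.15, pandas 2.3.3, numpy 2.4.6 and scipy 1.17.1 were used.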

Additional observations from a re-analysis of the deposited data

How the results depend on the processing

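All 8 JAZ loci stayed expressed at thresholds from 0.1 to 10 FPKM and in each library alone. This could not come out otherwise, since the lowest single value was 11.8 FPKM. As deposited, with libraries rescaled to a common sum or with median-ratio scaling, 0 of the 8 loci were higher in library 1. Their median log2 ratio stayed between 0.71 and 0.78, and single ratios between 0.12 and 1.80, under the scalings and pseudocounts tried. Rescaling to a common sum of 1000000 raised the mean summed level to 2211, by construction, since the deposited totals lie under 1000000. The count of JAZ loci 2-fold apart, 2, became 5 at 1.5-fold. The share of all loci 2-fold apart became 3.85% with no filter, as loci with a mean under 1 FPKM enter, and 5.41% at a mean of 5 FPKM. The summed level was 1133 to 1781 FPKM with either library left out. No pairing between conditions exists, because both libraries belong to 1 group. Values of neighbours near 0 are limited by the unknown depth.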
